A study of Arabidopsis thaliana with 11 samples.

Results

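PUB19, AR781 and STZ are 3 Arabidopsis genes of the early stress response, each read by 1 probe set on the Affymetrix ATH1 array. They were taken from 13513 plant probe sets that the platform annotation assigns to 1 gene, on the basis of earlier results of the same data in which tetraploid seedlings lay above diploid ones. PUB19 (locus AT1G60190) and AR781 (AT2G26530) had passed the test of that difference, and STZ (AT1G27730) had not. The difference between tetraploids and diploids therefore had a part in the choice of these genes and is described here without a test. All 3 probe sets passed the filter on low values, which kept 15075 of 22746 plant probe sets: AR781 and STZ lay above their array's percentile 40 on all 11 arrays and PUB19 on 10 of 11.

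The plants were whole seedlings of the ecotype C24, grown on agar with Murashige and Skoog salts and harvested at 1 early leaf stage. All groups share this C24 background and the same stock code. The groups were diploids with 2 chromosome sets (n = 2), 2 triploid groups with 3 sets, named TFE and TME by their title codes (n = 3 each), and tetraploids with 4 sets (n = 3), which had been obtained by treatment with colchicine. The source label of TFE and TME is the same, 4x by 2x, and the meaning of the codes is not given. Each group holds consecutive array numbers, so an effect of the order in which arrays were handled cannot be told apart from an effect of group. The labels name no separate sowings, so a p-value measures array-to-array spread only, and that spread may be technical.

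PUB19 is a U-box E3 ubiquitin ligase, an enzyme that attaches ubiquitin to target proteins, and it is known, with its close relative PUB18, for holding back responses to abscisic acid and drought. STZ, also named ZAT10, is a C2H2 zinc-finger transcription factor that carries an EAR repression motif and responds within a short time to salt, cold, wounding and high light. AR781 encodes a protein with the domain of unknown function DUF1645; its transcript is counted among those that respond early to touch, wounding and pathogen signals.

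Signals are MAS5 values on a linear scale, scaled so that the mean of every array, trimmed by 2% at each end, is 100.01. Such values show a transcript in relation to the other transcripts of its array and not per cell, and fewer cells of a type cannot be told apart from less RNA per cell. The array triploid TFE replicate 3 stood apart from the rest, with rank correlations of 0.861 to 0.88 with the other arrays, against 0.942 to 0.973 among those. Of 7 shoot markers, the 3 with named probe sets (RCA, LHCB4.1 and PSAN) were bright on every array, with summed signals of 10573 to 14266 in diploids, 13705 to 15521 in TFE, 12390 to 14193 in TME and 11949 to 13994 in tetraploids. The seed gene PAP85, the 1 seed marker of 5 with a named probe set, lay below percentile 40 on all 11 arrays, and 0 of 4 flower markers had one. The root hair gene EXPA7, the 1 root marker of 7 with a named probe set, ran from 27.3 to 31.2 in diploids, 7.79 to 33.2 in TFE, 24.7 to 31.2 in TME and 32.6 to 55.1 in tetraploids.

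PUB19 had the widest span of the 3 genes across ploidy. Its signal was 44.4 and 38.2 in the diploids, 39.2, 80.9 and 31.2 in triploid TFE, 107, 84.6 and 141 in triploid TME, and 343, 174 and 229 in the tetraploids. Every tetraploid array was above every other array, every triploid TME array was above every triploid TFE and diploid array, and triploid TFE overlapped the diploids. Group means were 41.3 ± 4.4, 50.4 ± 26.7, 111 ± 28.4 and 249 ± 86.3 (SD, n = 2, 3, 3 and 3). The tetraploid mean lay above the diploid mean by a log2 difference of 2.54 ± 0.36 (SE), the place 10 among the 15075 probe sets ordered from the largest rise. In that comparison 0.597% of probe sets were called higher, and 15.9% had tetraploid arrays that all lay above the diploid ones; since the comparison chose the gene, nothing is read from these shares.

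The low end of PUB19 was close to the middle of the array. The diploid signals were 1.05 and 0.887 times the median plant probe set of their array, and the tetraploid signals 7.52, 4.03 and 5.15 times. The outlying array, triploid TFE replicate 3, gave 31.2 where its array's percentile 40 was 37.6, so PUB19 on that array was within the range set aside as low. Among the other TFE arrays, replicate 2 at 80.9 was near the lowest TME array at 84.6, while replicate 1 at 39.2 was at the diploid level.

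AR781 had the narrowest spread within groups. Its signal was 34.2 and 33.3 in the diploids, 42.4, 58.6 and 39.98 in triploid TFE, 76.5, 85.5 and 71.4 in triploid TME, and 85.5, 103 and 126 in the tetraploids. In scaled signal no pair of groups overlapped, in the order diploid, TFE, TME and tetraploid. The highest TME array (85.47) and the lowest tetraploid array (85.52) were almost equal. As a percentile of its own array, AR781 did not keep this order. Triploid TFE replicate 3 was at percentile 41.7, below the diploids at 45.3 and 44.2. Tetraploid replicate 1, at 66.5, was below triploid TME replicate 2, at 67.4. Group means were 33.8 ± 0.608, 47.0 ± 10.1, 77.8 ± 7.11 and 105 ± 20.5 (SD, n = 2, 3, 3 and 3). The tetraploid mean was above the diploid mean by a log2 difference of 1.62 ± 0.23 (SE).

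In scaled signal the same order without overlap, diploid below TFE below TME below tetraploid, was found for 13 of the 15075 probe sets kept (0.0862%). AR781 is 1 of them. Part of that order is the difference that chose the gene. Within groups, the log2 values of AR781 had an SD of 0.23, at percentile 46.3 of all probe sets kept, whereas PUB19 had 0.51 (percentile 86.9) and STZ 0.53 (percentile 88.0).

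**Figure D1:**
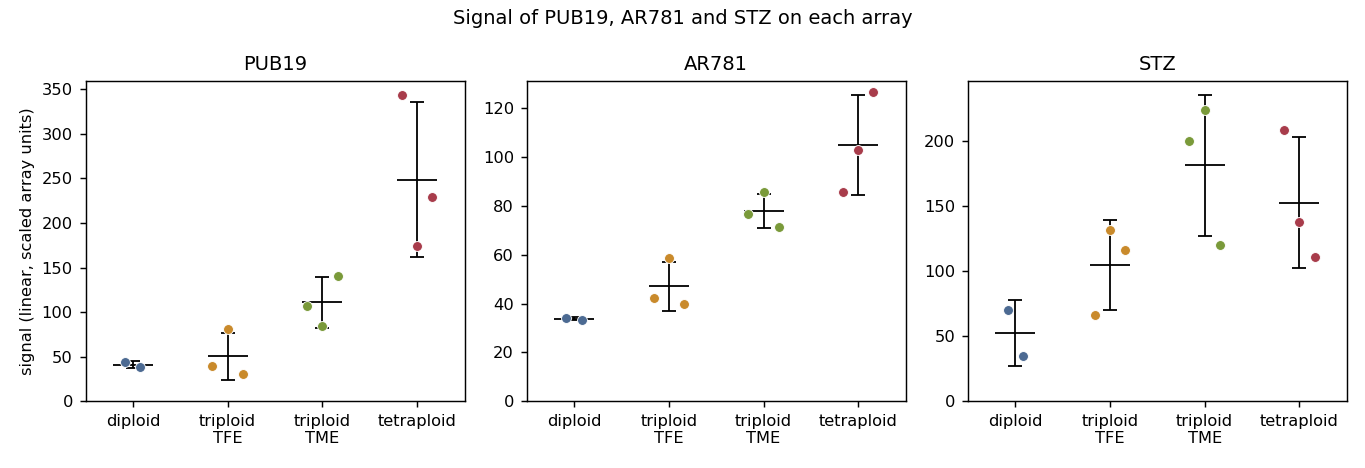
Signal of PUB19, AR781 and STZ (vertical axes, linear scaled array units, each from 0) on each of the 11 arrays by group; points are arrays and bars the group mean ± SD (n = 2 diploid, 3 in each other group). AR781 climbs from 33.3 to 126 with no overlap between groups in scaled signal, and PUB19 is highest on the 3 tetraploid arrays. The STZ arrays of both triploid groups and of the tetraploids overlap.

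STZ did not share the order of group means of PUB19 and AR781, in which tetraploids were above TME. Its signal was 70.4 and 34.6 in the diploids, 66.3, 132 and 116 in triploid TFE, 200 (199.6), 224 and 120 in triploid TME, and 208, 138 and 111 in the tetraploids. The 2 diploid arrays lay far apart, and the higher of them, at 70.4, was above the lowest TFE array. The TME and tetraploid arrays were all above both diploids, and overlapped each other and TFE. Group means were 52.5 ± 25.3, 105 ± 34.3, 181 ± 54.3 and 152 ± 50.3 (SD, n = 2, 3, 3 and 3), so that the highest mean was that of triploid TME.

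Against the diploids, STZ differed by a log2 value of 1.58 ± 0.36 in tetraploids, 1.83 ± 0.36 in TME and 1.03 ± 0.36 in TFE (SE). The first was 1.07 without diploid replicate 2, the dimmer diploid, and 2.09 without diploid replicate 1. The size of every STZ difference from the diploids therefore depends on which diploid array is used.

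How far the triploids had moved was described for each gene as a log2 difference from the same 2 diploid arrays. These arrays also entered the choice of the genes, so no test is given. PUB19 differed from diploids by 1.40 ± 0.36 in TME and by 0.17 ± 0.36 in TFE (SE). AR781 differed by 1.20 ± 0.23 in TME and by 0.46 ± 0.23 in TFE (SE). On the log2 scale TME had covered 55.1% of the step from diploid to tetraploid for PUB19, 74.3% for AR781 and 116% for STZ, and TFE had covered 6.58%, 28.2% and 65.1%.

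All 3 genes had TME arrays that lay wholly above the diploid ones, which 12.5% of all probe sets kept also had. In TFE this held, in scaled signal, for AR781 alone, against 11.9% of all probe sets. The small PUB19 difference in TFE had no stable sign: without triploid TFE replicate 2 it was -0.24, and with array weights it was 0.47.

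The tetraploids differed from the triploids mainly for PUB19 and AR781. PUB19 was higher in tetraploids by a log2 difference of 1.14 ± 0.32 from TME and of 2.37 ± 0.32 from TFE (SE), and AR781 by 0.42 ± 0.20 and 1.16 ± 0.20. In scaled signal both genes had tetraploid arrays wholly above those of TME, as 8.03% of all probe sets did. Their tetraploid arrays were also wholly above those of TFE, as for 8.5%. STZ had a log2 difference of -0.25 ± 0.32 from TME and of 0.55 ± 0.32 from TFE (SE), with arrays that overlapped in both. With single arrays left out, these STZ differences ran from -0.52 (without triploid TME replicate 3) to -0.05 (without tetraploid replicate 3) and from 0.25 (without triploid TFE replicate 1) to 0.75 (without tetraploid replicate 3), and that of AR781 from TME ran from 0.27 (without tetraploid replicate 3) to 0.55 (without tetraploid replicate 1). Arrays of TME and tetraploids with the same replicate number had weakly correlated deviations from the group means (r of 0.10 to 0.14). Their 6 pairs with different numbers ran from -0.13 to 0.03. Over all groups such pairs ran from -0.19 to 0.19. Both ends of that range come from diploids, whose 2 arrays have mirrored deviations by construction. With that number as a block, the count of probe sets called between these groups stayed at 0 in the fit of all 11 arrays and went from 1 to 42 when just their 6 arrays were fitted (limma).

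Whether the triploid codes differ was asked with arrays outside the comparison of tetraploids and diploids that had a part in the choice. The spread was estimated over all 11 arrays. The genes were chosen with earlier results of these data known, and STZ had not passed the test of that comparison. Independence of the TFE and TME test from the choice is therefore not established. All 3 genes were lower in TFE than in TME, and none passed the threshold after adjustment over the 15075 probe sets. The log2 difference was -1.23 ± 0.32 for PUB19 (SE, n = 3 and 3; 95% interval -1.91 to -0.55), with an unadjusted p of 0.0016 and an adjusted p of 0.36 (limma). For AR781 it was -0.74 ± 0.20 (95% interval -1.18 to -0.31; limma, unadjusted p = 0.0026, adjusted p = 0.38). For STZ it was -0.80 ± 0.32 (95% interval -1.50 to -0.11; limma, unadjusted p = 0.027, adjusted p = 0.44).

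In this comparison 4 of 15075 probe sets were called (0.0265%), and 1592 had an unadjusted p under 0.05 (10.6%). The 4 calls became 0 when any 1 of 9 of the 11 arrays was left out, and 6 without triploid TFE replicate 1 or replicate 2. They were also 0 with the replicate block, the control level as a covariate, quantile normalization, no filter, no intensity trend or just the 6 triploid arrays. The TFE arrays lay wholly below the TME arrays for PUB19 and AR781, as they did for 6.82% of all probe sets, and overlapped them for STZ. With just the 6 triploid arrays in the fit the adjusted p was 0.66 for each gene (limma). Without triploid TFE replicate 3 the log2 differences were -0.95, -0.64 and -0.90 (limma, adjusted p = 0.58, 0.57 and 0.62).

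The bacterial hybridisation controls were brightest in TFE, with a mean level of 531 ± 139 against 336 ± 79.3 in TME (SD, n = 3 each). They were 239 ± 116 in diploids (SD, n = 2) and 250 ± 7.72 in tetraploids (SD, n = 3). With that level as a covariate, TFE minus TME was -1.28 ± 0.41 for PUB19, -0.76 ± 0.26 for AR781 and -0.74 ± 0.42 for STZ (SE, limma, adjusted p = 0.99993 for each). The part of the control level in these differences was not tested.

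Some measures of RNA quality also differed between the groups. The ratio of the 3' to the 5' actin probe set of 1 control series was 0.506 and 0.524 in diploids and 0.308 to 0.403 in tetraploids. It was 0.559 to 0.92 in TFE and 0.407 to 0.539 in TME. In the second actin control series the ratio was 2.23 and 2.44 in diploids and 1.54 to 2.30 in tetraploids, which overlapped. The 3' to 5' ratio of GAPDH in that series was 0.913 and 1.12 in diploids and 0.723 to 0.895 in tetraploids, wholly below diploids. It was 1.09 to 1.53 in TFE and 0.971 to 1.11 in TME. GAPDH of the first series overlapped, with 0.870 and 1.03 in diploids and 0.922 to 1.13 in tetraploids. Ubiquitin overlapped in both series, with 0.981 and 1.04 in diploids and 1.01 to 1.29 in tetraploids in the first. In the second it was 1.49 and 1.86 in diploids and 1.51 to 1.65 in tetraploids. The part of these ratios, and of the root marker EXPA7, in the differences of PUB19, AR781 and STZ was not tested.

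**Figure D2:**
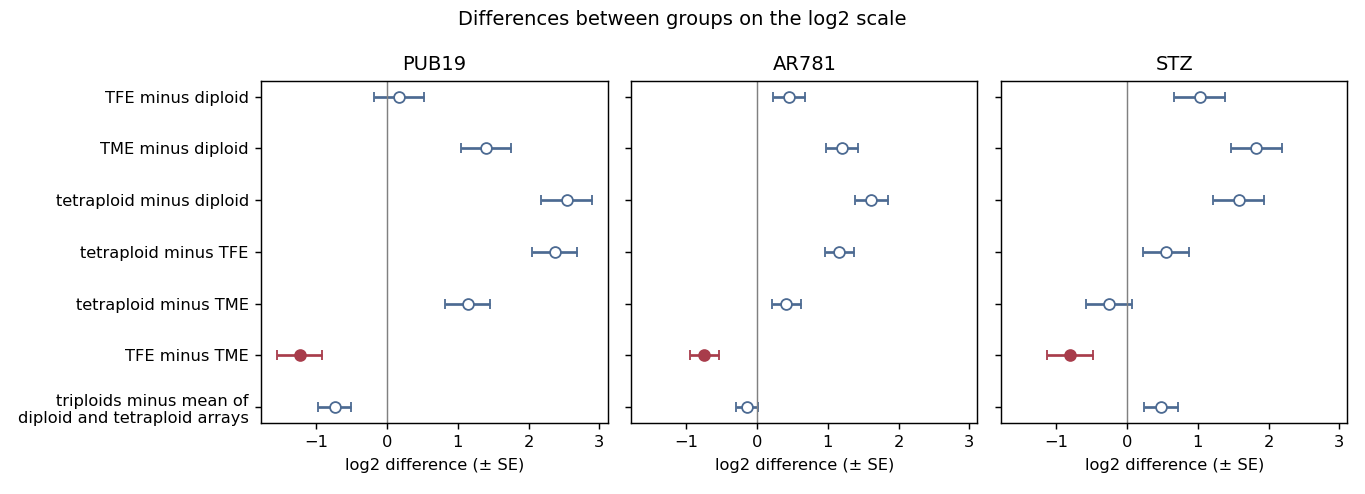
Log2 differences between groups (horizontal axes) for PUB19, AR781 and STZ, with bars of ± SE from the fit over all 11 arrays. Open blue circles are comparisons that use diploid or tetraploid arrays and are given without p. The filled red circle, TFE minus TME, was tested. PUB19 has its largest difference between tetraploids and diploids (2.54), and all 3 genes lie below 0 between TFE and TME (-1.23, -0.74 and -0.80).

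The 6 triploid arrays were also set against the mean of the 5 diploid and tetraploid arrays. With 2 diploid and 3 tetraploid arrays that mean lies at 60% of the step from diploid to tetraploid, so the value carries part of the difference that chose the genes and no p is given. The log2 difference of the triploids was -0.74 ± 0.24 for PUB19, -0.14 ± 0.15 for AR781 and 0.48 ± 0.24 for STZ (SE). Triploids lying exactly midway would have given -0.25, -0.16 and -0.16. Against the midpoint of the diploid and tetraploid means, a comparison chosen after the values were seen, the triploids were at -0.49 ± 0.24 for PUB19, 0.02 ± 0.15 for AR781 and 0.64 ± 0.24 for STZ (SE). Of all 15075 probe sets 0 were called against the mean of the 5 arrays (0%; limma; 886 had an unadjusted p under 0.05).

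Over the 11 arrays the log2 values of PUB19 and AR781 had a Pearson r of 0.88, those of AR781 and STZ of 0.71 and those of PUB19 and STZ of 0.62. After the group means had been removed, r was 0.22, 0.05 and 0.24 in the same order. Without triploid TFE replicate 3 these were -0.0037, 0.14 and 0.39, lower for PUB19 and AR781 and higher for both pairs with STZ. The array with the highest PUB19 and STZ signals among tetraploids, replicate 1, had the lowest AR781 signal of that group, and among TME arrays replicate 3 was highest for PUB19 and lowest for both others. These values describe 11 arrays that share group and hybridisation, and AR781 was at place 21 among named probe sets by likeness to PUB19, with STZ at place 441.

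The transcripts most like each gene over the 11 arrays were others. They have the highest r out of 8161 named probe sets kept, and such picking alone gives high values. No r was tested. For PUB19 the highest r was 0.98 for GH9C2, a glycosyl hydrolase of the endoglucanase family, which also followed it inside groups (r = 0.91 with group means removed) although it moved far less: its mean signal went from 547 in diploids to 571, 643 and 712 in TFE, TME and tetraploids. AT1G56220, AT5G42200, AT1G21000 and AT4G05070 came next with r from 0.92 to 0.95. With group means removed, AT4G16240 (r = 0.96) and AT4G13860 (r = 0.93) came before GH9C2. With group means left in, the r of AT4G16240 and AT4G13860 with PUB19 was 0.78 and 0.09.

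For AR781 the most like was AT3G19030 (r = 0.97), with mean signals of 267 in diploids, 361 in TFE, 592 in TME and 730 in tetraploids. It was followed by SIS, named for a salt-induced serine-rich protein (r = 0.95), AT3G10020, AT4G14270 and AT3G15450 (r from 0.949 to 0.951). AT2G47250, AT2G33220 and AT5G27700 were nearest with group means removed (r = 0.93, 0.93 and 0.90). With group means left in, their r with AR781 was -0.17, 0.22 and 0.35.

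For STZ the nearest was HIS1-3, a linker histone variant known to respond to water deficit (r = 0.97, and 0.92 with group means removed). Its signal was 55.3 and 38.8 in the diploids, 58.1, 78.9 and 73.8 in TFE, 96.3, 88.4 and 74.4 in TME, and 90.1, 81.9 and 81.8 in the tetraploids. Like STZ, it had its lowest value in diploid replicate 2, a likeness that its choice by r over these arrays favours. Its group means in TME and tetraploids were close, 86.4 ± 11.0 and 84.6 ± 4.77 (SD, n = 3 each). AT4G34150 and AT5G12970 (r = 0.93 and 0.90), ORA47 (r = 0.88) and AT5G13200 (r = 0.88) followed. With group means removed the nearest were PMEPCRF, a pectin methylesterase, AT1G11330 and AT1G76360 (r = 0.96, 0.96 and 0.95). With group means left in, their r with STZ was 0.10, 0.45 and 0.36.

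**Figure D3:**
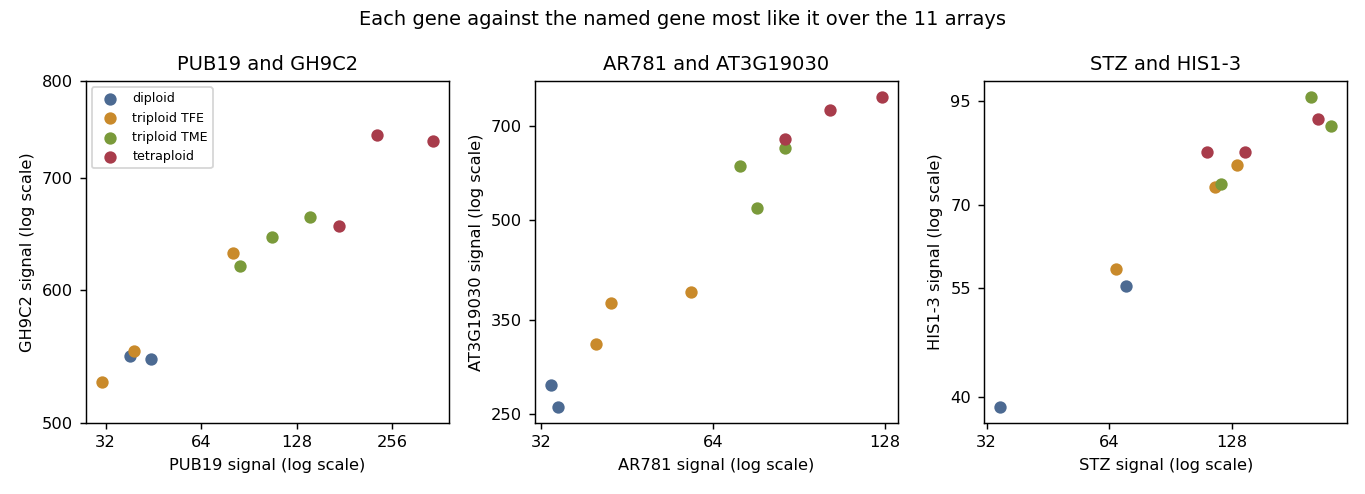
Signal of each gene (horizontal axis, log scale) against the named gene most like it (vertical axis, log scale) on the 11 arrays, coloured by group. PUB19 spans 31.2 to 343 while GH9C2 spans 529 to 743, AR781 and AT3G19030 separate the groups, and the lowest point of STZ and HIS1-3 is diploid replicate 2.

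Relatives of each gene were then compared over all pairs of groups. Of 31 U-box ligases other than PUB19, 13 had a named probe set and 10 passed the filter. None of the 10 was called between any pair of groups (limma), where at most 0.829% of all probe sets were called. An unadjusted p under 0.05 (limma) was found for 2 in tetraploids versus TFE (13.5% of all probe sets) and for 1 in TFE versus TME (10.6%). In tetraploids versus diploids 4 of 10 were higher, with a median log2 difference of -0.04 beside 0.01 over all probe sets kept, and 0 of them had an unadjusted p under 0.05. PUB22, PUB23 and PUB24, known as negative regulators of immune responses, had differences of -0.05, 0.33 and -0.12.

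PUB26, known for its part in the cold response, came closest among them. Its signal was 29.0 and 35.4 in diploids, 43.7, 42.4 and 11.5 in TFE, 67.7, 40.8 and 61.0 in TME, and 91.0, 58.8 and 40.2 in tetraploids. The tetraploid and TME arrays lay above the diploids, as they did for 15.9% and 12.5% of all probe sets. The log2 difference of tetraploids was 0.90 ± 0.50 (SE, limma, adjusted p = 0.69). AT1G71020, a U-box gene with armadillo repeats, had a difference of 0.35 (limma, adjusted p = 0.85).

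The DUF1645 genes other than AR781 all had named probe sets that passed the filter, 5 of 5. All 5 had a higher mean in tetraploids than in diploids, with a median log2 difference of 0.30, beside 0.01 over all probe sets kept. In that comparison 0 of the 5 were called, beside 0.829% of all probe sets. An unadjusted p under 0.05 was found for 2 of the 5, and for 8.42% of all probe sets (limma). AT1G23710 had signals of 23.0 and 29.0 in diploids, 29.2, 36.1 and 76.7 in TFE, 64.2, 73.1 and 51.3 in TME, and 91.9, 61.4 and 69.9 in tetraploids. Its tetraploid difference was 1.51 ± 0.35 (SE; limma, adjusted p = 0.068). The group means rose in the order seen for AR781, and the 1 TFE array as high as the tetraploids was replicate 3, the array that stood apart.

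AT1G70420 had signals of 58.6 and 61.5 in diploids, 81.7, 97.1 and 74.8 in TFE, 81.9, 107 and 102 in TME, and 98.9, 99.98 and 101 in tetraploids. All polyploid arrays were above both diploids, which 2.63% of all probe sets kept showed as well. Its tetraploid difference was 0.74 ± 0.18 (SE; limma, adjusted p = 0.082). The other relatives, AT2G15760, AT3G27880 and AT3G62630, had tetraploid differences of 0.04, 0.16 and 0.30.

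**Figure D4:**
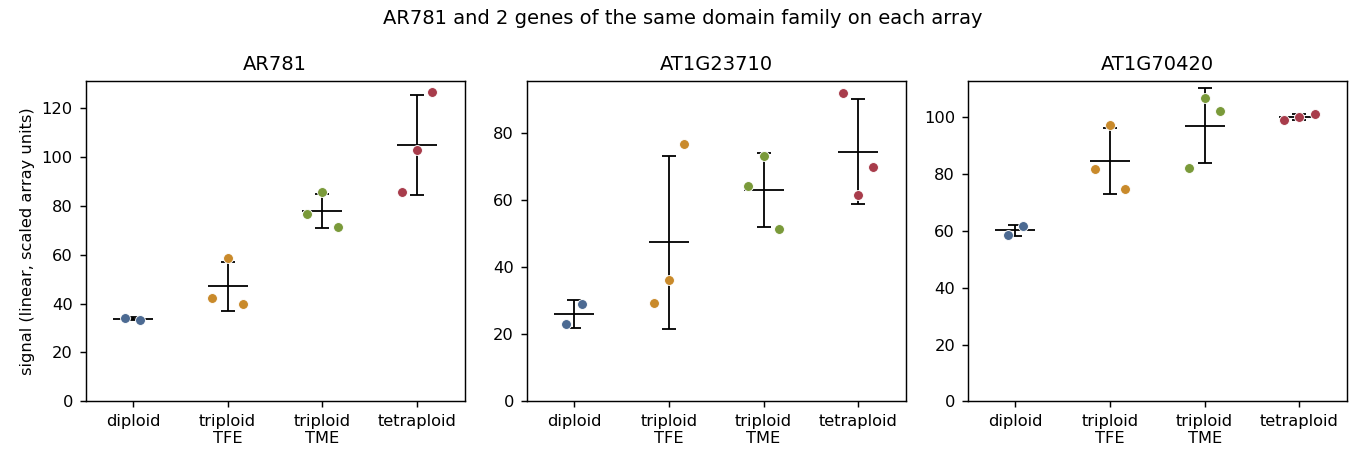
Signal of AR781 and of 2 genes with the same domain, AT1G23710 and AT1G70420 (vertical axes, linear scaled array units, each from 0), on each array by group; points are arrays and bars the group mean ± SD (n = 2 diploid, 3 in each other group). In all 3 panels both diploid arrays are lowest, and the high TFE point of AT1G23710 (76.7) is replicate 3.

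Of 16 zinc-finger genes of the ZAT and AZF type other than STZ, 4 had a named probe set and 2 passed the filter. Neither was called between any pair of groups (limma), where at most 0.829% of all probe sets were called. In tetraploids versus diploids 0 of 2 had an unadjusted p under 0.05 (limma). AT2G28200, known as ZAT5, had a tetraploid difference of 0.72 ± 0.37 (SE; limma, adjusted p = 0.66) and a TME difference of 0.78 ± 0.37 (SE; limma, adjusted p = 1.0). Its signal was 32.2 and 34.6 in diploids, 49.7, 58.7 and 64.3 in TME and 55.8, 50.7 and 58.0 in tetraploids. TME and tetraploids were both wholly above the diploids and overlapped each other, while TFE spread from 18.8 to 54.98. Tetraploid arrays wholly above the diploids were found for 15.9% of all probe sets, and such TME arrays for 12.5%. AT2G45120, known as ZAT4, was dim, with 1.52 to 41.7 over the arrays.

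Other early stress genes were mostly unnamed in the platform annotation: of 38 touch, wound and early stress loci, 6 had a named probe set and 4 passed the filter. ORA47, an AP2/ERF factor linked to jasmonate, was the 1 gene of the 4 called. It was higher in tetraploids (limma, adjusted p = 8.2e-05) and TME (limma, adjusted p = 0.00064) than in diploids, with log2 differences of 4.09 and 3.52. It was also higher in tetraploids than in TFE (2.17, limma, adjusted p = 0.0073), a comparison in which 0.471% of all probe sets were called. The diploid signals of ORA47 were dim, 23.9 and 10.2, below their arrays' percentile 40 of 26.4 and 27.4. It therefore passed the filter only through the polyploid groups. The list was also chosen with earlier results of these data known, so these calls are given as a description only. The other 3, WRKY6, WRKY53 and CML38, had tetraploid differences of 0.08, 0.50 and -0.10, and 0 of them had an adjusted p under 0.05 in any pair. Over all probe sets 0.829% were called in tetraploids versus diploids and 0.126% in TME versus diploids.

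Of 22 abscisic acid, drought and cold marker loci, 2 had a named probe set that passed the filter, COR15A and COR47. Neither was called between any pair of groups (limma), where at most 0.829% of all probe sets were called. Both had an unadjusted p under 0.05 (limma) in tetraploids versus diploids, as 8.42% of all probe sets had. COR15A, a chloroplast protein that protects membranes in the cold, had signals of 157 and 164 in diploids, 181, 192 and 261 in TFE, 246, 138 and 232 in TME, and 301, 301 and 347 in tetraploids. Its tetraploid arrays were above all others. Of all probe sets, 15.9% had tetraploid arrays wholly above the diploids, 8.03% wholly above TME and 8.5% wholly above TFE. The share with all of these together was not counted. The log2 difference of COR15A between tetraploids and diploids was 0.98 ± 0.22 (SE, limma, adjusted p = 0.056). COR47, a dehydrin, had a difference of 0.38 (limma, adjusted p = 0.32). None of 15 loci for jasmonate synthesis and JAZ repressors had a named probe set.

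**Figure D5:**
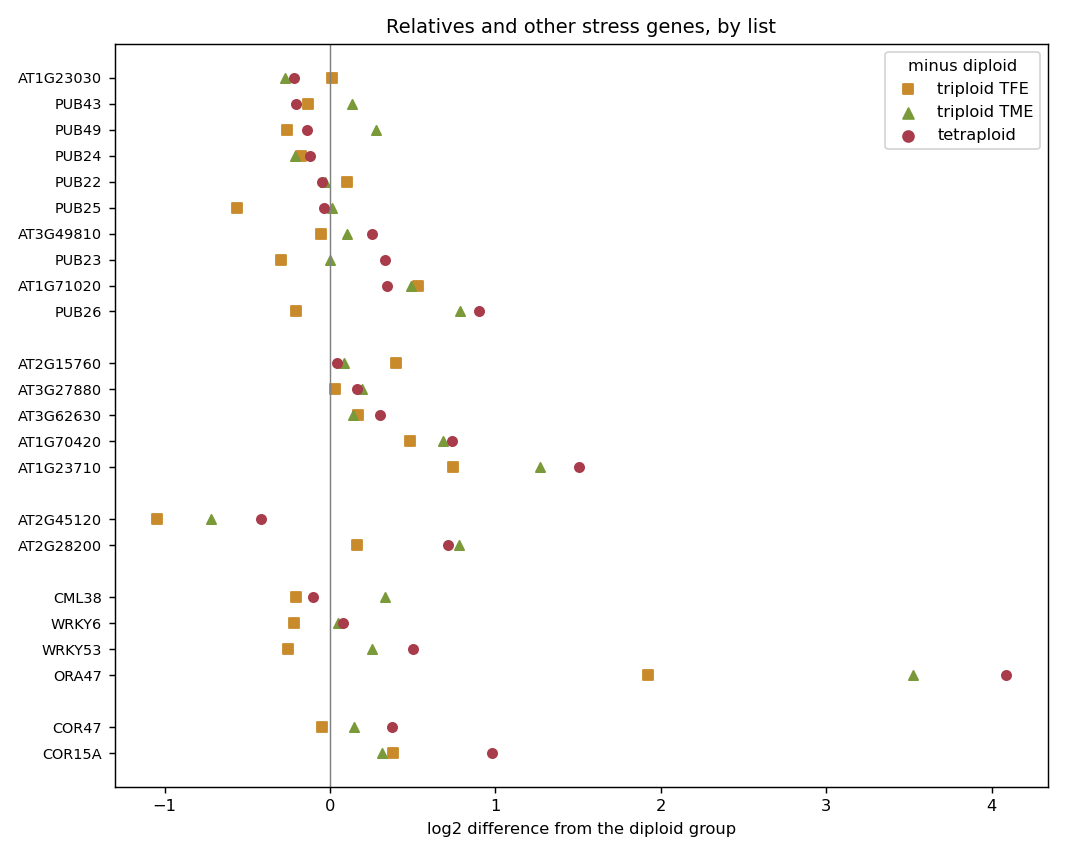
Log2 difference from the diploid group (horizontal axis) of the triploid TFE, triploid TME and tetraploid group means for the relatives and stress genes that passed the filter, grouped from top to bottom as U-box ligases, DUF1645 genes, zinc-finger genes, early stress genes, and abscisic acid and cold markers. ORA47 is farthest to the right (4.09 in tetraploids), and the 10 U-box ligases lie on both sides of 0.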

How the data were processed

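Total RNA of 11 whole-seedling samples was labelled with biotin and hybridised to ATH1 arrays, per the labels. The deposited table holds a linear intensity for each probe set on each array; the submitters' processing notes name MAS5 without a version. Detection calls and scanner files were not used here and no genome coordinates or sequences are shown. Precision is limited by the number of arrays, among which no identical pair was found.

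Of 22810 probe sets, 64 controls were set aside. Signals were floored at 2.279, the percentile 10 of the pooled values, before taking log2. A probe set was kept if it exceeded the percentile 40 on 2 or more arrays (15075). Group means over all 11 arrays were estimated with limma 3.58.1 (R 4.3.3; variances moderated with an intensity trend) and tested 2-sided, with Benjamini-Hochberg adjustment over the probe sets kept and a threshold of 0.05. The fit was tested on simulated data. Control levels are geometric means of 18 hybridisation probe sets. Probe sets were named by the platform annotation, with symbols updated from the TAIR10.1 genes.

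The members and lists were chosen with earlier results of these data known. The genes named beside the members are, per list, those called (at most 5) or otherwise the 2 with the smallest p in tetraploids versus diploids, and per member the 5 named probe sets with the highest r over the arrays and the 3 with the highest r of deviations from group means. PUB22, PUB23, PUB24 and the remaining DUF1645 and early stress genes were named after their values were seen. Other settings covered the floor, normalization, filter, variance model, array weights, the control level, the arrays in the fit and the replicate number as a block. Whether replicate numbers pair arrays was checked by correlating deviations from group means over all probe sets kept. The 3 same-numbered pairs of TME and tetraploid arrays had r of 0.10 to 0.14, each over 0.1, and their 6 other pairs -0.13 to 0.03. No same-numbered pair of any other groups exceeded 0.1. Of 30 pairs with different numbers, 5 exceeded 0.1, up to 0.19, each with a diploid array. The labels name no shared batch. The comparison of triploids with the mean of the diploid and tetraploid arrays was planned as a test of the members and is given without p, because that mean weights the tetraploids more.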

Additional observations from a re-analysis of the deposited data

How the results depend on the processing

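Between TFE and TME, no setting brought PUB19, AR781 or STZ past the threshold or turned a direction. In triploids versus the mean of diploid and tetraploid arrays AR781 turned from -0.14 to 0.02 without tetraploid replicate 2, to 0.092 without tetraploid replicate 3 and to 0.0202 against the midpoint; leaving out an array or weighting the groups equally changes that mean by construction. Between TFE and TME the log2 difference of PUB19 ran from -1.63 to -0.95 with single arrays left out, that of AR781 from -0.91 to -0.64 and that of STZ from -1.07 to -0.50, and the smallest adjusted p was 0.068 (limma), for PUB19 without triploid TFE replicate 2. For triploids versus the mean of diploid and tetraploid arrays these ranges were -1.15 to -0.36, -0.39 to 0.09 and 0.12 to 0.76. With the replicate block, the TFE and TME differences of PUB19, AR781 and STZ had an adjusted p of 0.29, 0.29 and 0.38 (limma). The 4 calls between TFE and TME became 0 with the replicate block, with the control level as covariate, without the intensity trend, with no filter, with quantile-normalized values and when just the 6 triploid arrays were fitted, 7 with array weights, and 0 to 6 with single arrays left out; the cause was not tested. The 0 calls of triploids versus that mean became 1 without triploid TFE replicate 1 (range 0 to 1). With log2(value + 16) the AR781 differences from diploids were 1.27 in tetraploids and 0.91 in TME, since a pseudocount shrinks dim signals.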
